A study of Mus musculus with 11 samples.

Results

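DNA transposon subfamilies were all count entries whose repeat class was given as DNA in the deposited tables. This rule selected 303 of the 1243 repeat subfamilies, among 58223 entries in all, and used no measured value. They fell into 21 families, and 10 names occurred under 2 families, so the 303 entries carry 293 distinct names. A further 6 entries of the uncertain class "DNA?" held at most 4 counts in any library and were left out. RNA was sequenced after ribodepletion from lung primary fibroblasts of 11 mice, each library from a separate animal. The cells were grown at 37 °C in 5% CO2 and 5% O2 with 15% serum. The groups were cGAS KO females (n = 3), cGAS KO males (n = 3), WT females (n = 2) and WT males (n = 3). cGAS is the cytosolic DNA sensor, and the series asks how its loss changes transcription, with derepression of LINE1 elements named in its title. The labels give neither the knockout allele nor the strain or age of the mice.

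DNA transposons move by cut and paste: a transposase binds the short inverted repeats at the ends of the element, excises it and inserts it elsewhere. In mice nearly all of them are old, immobile copies scattered through introns and intergenic sequence, so RNA assigned to a subfamily can come from transcripts of host genes as well as from an element's own start site. The hAT superfamily (here the Charlie, Tip100, Ac, Blackjack and Tag1 families) and the Tc1/mariner superfamily (here Tigger, Tc1, Tc2, Mariner and Pogo) account for most mammalian copies. Several host genes descend from their transposases, among them Cenpb, which encodes a centromere protein, and Rag1, which encodes the recombinase that assembles antigen receptor genes.

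Total counts per library ran from 27261958 to 48039328, so that 3 counts, the upper limit behind a value of 0, equal 0.0624 to 0.110 CPM, where CPM is the count scaled to 1000000 library counts. Cgas, the targeted gene, averaged 2.06 ± 0.269 CPM in the 6 KO libraries (SD) and 8.28 ± 1.74 CPM in the 5 WT libraries (SD), with no overlap between genotypes (log2 fold change −1.99, SE 0.16, adjusted p = 0.00102, edgeR quasi-likelihood test). All 10 fibroblast markers were read in every library, led by Col1a1 at 10856 to 17263 CPM, although Lum reached only 0.498 to 6.27 CPM. All 15 leukocyte and macrophage markers were also above the floor in every library. Lyz2, a macrophage lysozyme, had 2598 to 6046 CPM. The 15 leukocyte markers summed to 8744 to 14378 CPM in KO and 6149 to 9176 CPM in WT. Of 10 epithelial markers, Scgb1a1 was at 0 in at least 6 libraries, and the list summed to 10.8 to 36.6 CPM in KO and 21.8 to 57.3 CPM in WT.

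WT female 2 stood apart from the other libraries. Repeats took 10.2% of its counts, against 5.31% to 8.10% elsewhere, and the nuclear-retained RNA Malat1 stood at 8377 CPM, against 1995 to 3349 CPM in the other 10 libraries. Neat1, another nuclear-retained RNA, had 1160 CPM in WT female 2 and 86.0 to 221 CPM in the others. It was the highest of the 11 libraries for 181 of the 250 DNA subfamilies tested over both sexes (72.4%), against 22.3% of all entries tested. Several results for the class as a whole are given with and without WT female 2, whereas values of single subfamilies include it unless stated. Its part in the differences between genotypes was measured only by leaving it out.

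Counts were concentrated on a few subfamilies. FordPrefect, of the hAT-Tip100 family, took 81.3% of all DNA transposon counts, and the next 10 subfamilies took 54.0% of the remainder. Only 26 subfamilies averaged above 10 CPM, 128 lay between 1 and 10 CPM, and 149 were at or under 1 CPM, including 5 with no count in any library. These levels are counts per subfamily summed over all its genomic copies, with no correction for their number or length, so they rank counts and not transcription per copy. Which copies of FordPrefect gave the counts was not analysed here.

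**Figure D1:**
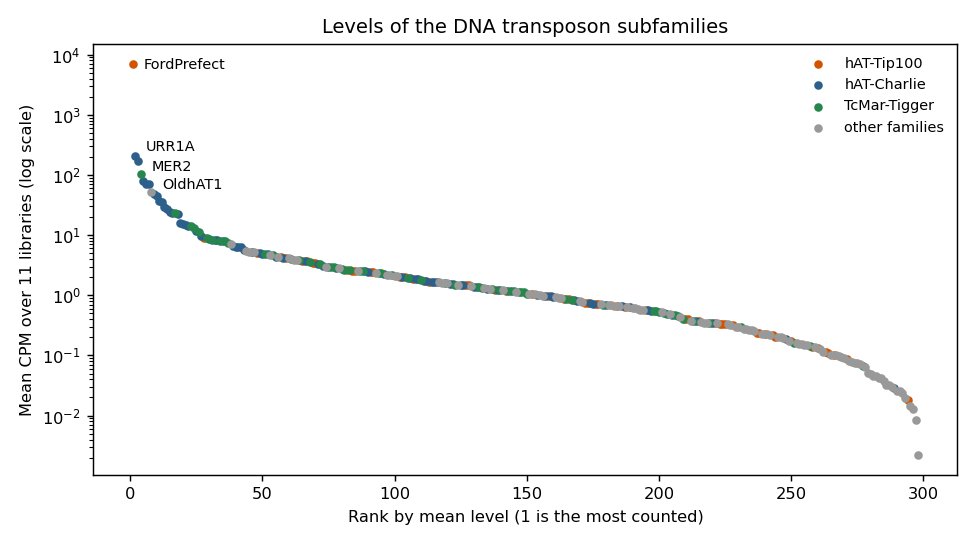
Mean CPM over the 11 libraries (log scale) of each DNA transposon subfamily with at least 1 count, ranked by level and coloured by family. FordPrefect lies far above the second subfamily, URR1A, which averaged 207 CPM, and 149 of the 303 subfamilies average 1 CPM or less.

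By family, hAT-Tip100 held 82.1% of the counts with 54 subfamilies, nearly all of it FordPrefect. hAT-Charlie, the largest family with 80 subfamilies, held 12.9%, and TcMar-Tigger, with 57 subfamilies, held 3.20%. hAT-Ac held 0.625% with 5 subfamilies, of which OldhAT1 was the most counted. The 41 subfamilies assigned to no family below the class held 0.276%. PiggyBac (2 subfamilies) and PIF-Harbinger (6 subfamilies) held 0.0479% and 0.0197%. The filter on low counts passed 78 of 80 hAT-Charlie, 54 of 57 TcMar-Tigger, 46 of 54 hAT-Tip100 and 26 of the 41 unplaced subfamilies. The 53 subfamilies that did not pass it averaged at most 0.190 CPM each and held 1718 counts together over the 11 libraries.

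As a share of all counts, DNA transposons took 0.936%, 0.938% and 0.954% in KO females and 0.740%, 0.712% and 0.642% in KO males. They took 0.765% and 1.36% in WT females and 0.971%, 0.829% and 0.777% in WT males. All 3 KO males were below all 3 WT males, whereas the KO females lay close together between the 2 WT females. The mean share was 0.820% ± 0.138 in KO (SD, n = 6) and 0.941% ± 0.249 in WT (SD, n = 5), a ratio of 0.872, and the log2 ratio of −0.20 was smaller than the pooled within-group SD of 0.25. In males the mean was 0.698% ± 0.0502 in KO and 0.859% ± 0.101 in WT (SD, n = 3 each), a ratio of 0.812. Sums over the class were not tested, since the members were chosen with earlier results of these data known. Without WT female 2, the log2 ratio of mean shares over both sexes was −0.027. That ratio is not adjusted for sex and sets the 6 KO libraries against WT female 1 and the 3 WT males. Over all libraries, the share averaged 0.778% in males and 0.991% in females, so the larger part of males in that WT mean lowers it.

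FordPrefect set most of that share. It had 7657, 7424 and 7773 CPM in KO females and 5968, 5992 and 5205 CPM in KO males. It had 6063 and 11150 CPM in WT females and 8154, 6743 and 6067 CPM in WT males. KO males were below WT males by a narrow margin, and KO females again lay between the WT females. Its log2 fold change over both sexes was −0.24 (SE 0.16, adjusted p = 0.457, edgeR), and −0.37 to −0.085 when single libraries were left out.

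The other subfamilies summed to 1704, 1960 and 1766 CPM in KO females and 1427, 1125 and 1216 CPM in KO males. They summed to 1589 and 2463 CPM in WT females and 1561, 1549 and 1700 CPM in WT males. The pattern was that of FordPrefect: lower in every KO male than in any WT male, and between the WT females in KO females. FordPrefect nevertheless did not keep a fixed ratio to the rest, which was 5.33 in KO male 2 and 3.57 in WT male 3, the extremes of the 11 libraries. The share of counts on repeats outside the class was 6.66%, 5.70% and 5.98% in KO females, 6.48%, 4.59% and 4.82% in KO males, 5.65% and 8.86% in WT females, and 5.14%, 6.14% and 7.32% in WT males. Those shares overlapped between KO and WT males, because KO male 1 exceeded WT males 1 and 2. As a share of repeat counts, the class took 10.2% to 14.1% in KO and 9.59% to 15.9% in WT.

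**Figure D2:**
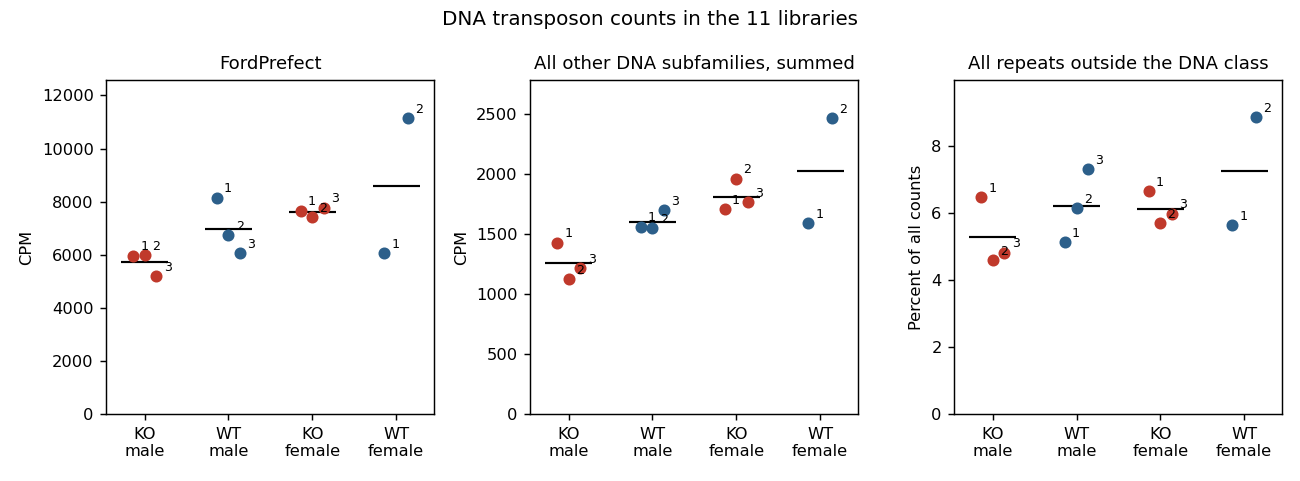
FordPrefect (left, CPM), all other DNA transposon subfamilies summed (middle, CPM) and all repeats outside the class (right, percent of all counts) in each library, with points numbered by replicate and lines at group means. KO males lie below WT males in the left and middle plots, and WT female 2 is the highest point in every plot.

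Over both sexes, no DNA transposon subfamily passed the test of KO against WT. Of the 250 subfamilies tested, 0 passed an adjusted p of 0.05 (edgeR quasi-likelihood test, Benjamini-Hochberg over 22298 entries), and 0.00448% of all entries did, which is the 1 entry Cgas. At an unadjusted p of 0.05, 48 were lower in KO and 0 higher, or 19.2% of them, against 7.09% of all entries lower and 10.1% higher. The fold changes leaned to one side: 226 were negative and 24 positive, with a median log2 fold change of −0.27, against −0.015 over all entries. The same lean stood in the other repeat classes, with medians of −0.24 for LINE, −0.30 for SINE and −0.25 for LTR subfamilies, and −0.0038 for genes. Scaling repeats to the total repeat count of each library brought the median of the DNA subfamilies to −0.030. No DNA subfamily had every KO library below or above every WT library, against 0.480% of all entries lower and 0.596% higher.

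Other tools made some calls in the same direction. DESeq2 called 1 subfamily, Charlie19a, and none higher, where 0.673% of all entries were called lower. limma-voom with sample quality weights, which gave WT female 2 a weight of 0.141, called 22 lower and 0 higher (8.80%, against 4.53% of all entries lower). The largest weight of all libraries, 5.52, went to WT male 2. WT males 1 and 3 had 0.347 and 0.529, and WT female 1 had 0.552. On the WT side, that fit thus drew mainly on WT male 2. Leaving out WT female 1 gave 40 lower calls in edgeR (15.5% of 258, against 2.73% of all entries lower), whereas leaving out WT female 2 gave 0 (against 0.00440% of all entries in either direction), with a median of −0.18. In bulk samples, fewer cells of a type and less RNA per cell cannot be told apart. Moving with this lean were the 15 leukocyte markers, all with positive fold changes in KO, and the 7 epithelial markers tested, all with negative ones. In KO females, however, the leukocyte list summed to 9077, 10000 and 8744 CPM, against 9176 CPM in WT female 1 and 6214 CPM in WT female 2. The leukocyte markers diverged in WT female 2, with C1qa at 44.1 CPM, the lowest of all libraries, and Tyrobp at 289 CPM, the highest. The 10 fibroblast and 8 endothelial markers were of mixed sign, with 5 and 3 positive. The 4 nuclear-retained RNAs were all negative with WT female 2 included. Among these, Malat1 (3101 to 3285 CPM) and Neat1 (128 to 192 CPM) lay above WT female 1 (2787 and 123 CPM) in KO females. Kcnq1ot1 and Meg3, also on that list, ran both below and above WT female 1 in KO females. The epithelial list averaged 18.1 ± 9.57 CPM in KO (SD, n = 6), against 34.6 ± 16.0 CPM in WT (SD, n = 5). The part of these markers in the lean was not tested beyond these fits. With the mean level of the leukocyte markers as a covariate the median was −0.076, and with the share of other repeats as a covariate it was −0.091. The leukocyte covariate also took entries of any kind at an unadjusted p under 0.05 from 3827 to 267. Its effect was thus not particular to the class.

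The most counted subfamilies after FordPrefect lie mostly in hAT-Charlie. URR1A, found only in rodents, had 218, 245 and 220.1 CPM in KO females and 186, 143 and 149.6 CPM in KO males. It had 197 and 312 CPM in WT females and 202, 194 and 209 CPM in WT males. Every KO male was below every WT male, and the KO females lay between the WT females (log2 fold change over both sexes −0.26, SE 0.13, adjusted p = 0.318). URR1B, its close relative, had −0.28 (SE 0.12), and RCHARR1, another rodent subfamily, had −0.31 (SE 0.13). Neither passed the threshold, and their fold changes were close to the median of the class.

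MER2, a short non-autonomous relative of Tigger, had 108, 118 and 111 CPM in KO females and 88.3, 68.7 and 76.2 CPM in KO males. It had 97.1 and 156 CPM in WT females and 101, 100.4 and 107 CPM in WT males. The arrangement was as for URR1A (log2 fold change −0.30, SE 0.12, adjusted p = 0.253). MER5A (−0.28, SE 0.11), MER20 (−0.26, SE 0.13), Charlie1a (−0.28, SE 0.13) and MER5B (−0.22, SE 0.13), all of hAT-Charlie, had fold changes of like size, and none passed the threshold. OldhAT1 of hAT-Ac, the subfamily with the smallest SE among the 10 most counted, had 50.6, 55.9 and 52.7 CPM in KO females, 45.1, 42.1 and 44.4 CPM in KO males, 52.4 and 71.4 CPM in WT females and 49.5, 47.9 and 51.9 CPM in WT males (log2 fold change −0.20, SE 0.088, adjusted p = 0.282).

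**Figure D3:**
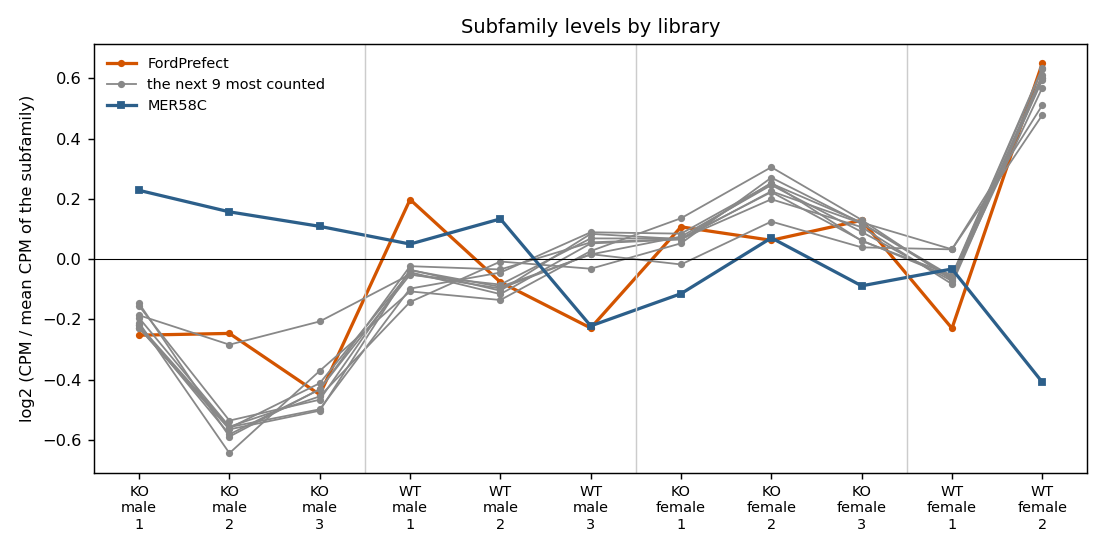
Level of the 10 most counted subfamilies and of MER58C in each library, as log2 of the CPM over the subfamily's mean CPM in 11 libraries. The grey lines run together, low in the KO males and high in WT female 2, FordPrefect departs from them upward in KO male 2 and WT male 1 and downward in WT male 3, and MER58C is lowest in WT female 2.

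Among subfamilies with the same sign in each sex, the 5 negative ones with the smallest p were Charlie19a, Zaphod4a, UCON55, MamTip2b and MER94. Charlie19a had 2.27, 3.05 and 3.59 CPM in KO females and 1.85, 1.77 and 1.73 CPM in KO males. It had 3.57 and 4.95 CPM in WT females and 2.99, 3.08 and 2.78 CPM in WT males. KO males were all below WT males, but KO female 3 exceeded 4 of the 5 WT libraries and KO female 2 exceeded WT males 1 and 3, so that KO and WT overlapped over both sexes. Its log2 fold change was −0.63 (SE 0.14, adjusted p = 0.179, edgeR), and −0.65 in DESeq2 (adjusted p = 0.0107).

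MamTip2b, of hAT-Tip100, had 9.41, 9.70 and 9.68 CPM in KO females and 5.36, 6.02 and 7.14 CPM in KO males. It had 9.11 and 13.0 CPM in WT females and 10.2, 7.78 and 11.6 CPM in WT males, so the gap was in males (log2 fold change over both sexes −0.47, SE 0.15, adjusted p = 0.184). Zaphod4a had 0.393 to 0.795 CPM in KO with a median of 0.525, and 0.687 to 1.33 CPM in WT with a median of 0.927 (log2 fold change −0.77, SE 0.21, adjusted p = 0.179). UCON55, one of the ancient conserved subfamilies, had −0.66 (SE 0.20), and MER94 of hAT-Blackjack −0.43 (SE 0.14). Zaphod4a and UCON55 rest on 338 and 235 counts over all 11 libraries.

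On the positive side the smallest p belonged to MER58C, of hAT-Charlie. It had 21.0, 23.9 and 21.4 CPM in KO females and 26.6, 25.4 and 24.5 CPM in KO males. It had 22.2 and 17.1 CPM in WT females and 23.5, 24.9 and 19.5 CPM in WT males. MER58C was thus lowest in WT female 2, where most subfamilies were highest, and KO and WT overlapped (log2 fold change 0.18, SE 0.083, adjusted p = 0.302). Its relative MER58B ran the other way, with 29.5, 35.0 and 31.1 CPM in KO females, 25.8, 19.4 and 21.9 CPM in KO males, 30.0 and 45.3 CPM in WT females and 27.4, 27.8 and 28.6 CPM in WT males (log2 fold change −0.28, SE 0.12, adjusted p = 0.259). EUTREP4 (0.49, SE 0.34), UCON39 (0.29, SE 0.31), MER124 (0.12, SE 0.15) and hAT-4b_Ther (0.12, SE 0.19) completed the 5 positive ones, all under 1.5 CPM on average and none past the threshold.

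Within males, the KO libraries lay below the WT libraries for many subfamilies, without a call in edgeR on all 11 libraries. Of 258 subfamilies tested, 0 passed the adjusted threshold, against 2.00% of all entries, and 37 were lower and 0 higher at an unadjusted p of 0.05 (14.3%, against 9.84% of all entries lower and 12.3% higher). The median log2 fold change was −0.34, with 229 negative and 29 positive. Of the 250 subfamilies tested over both sexes, 101 had every KO male below every WT male (40.4%, against 15.3% of all entries), and 0 had every KO male above (against 15.5%). The same count gave 54.8% of LINE, 97.1% of SINE and 42.5% of LTR subfamilies. DESeq2 called 4 lower in males (1.55%, against 3.62% of all entries), which were MamTip2b, Charlie19a, Charlie30a and Tigger17, and limma-voom called 57 (22.1%, against 8.59%). The limma-voom weights given above put WT male 2 far above WT males 1 and 3. In edgeR, leaving out WT female 2 gave 10 lower calls in males (against 2.90% of all entries), WT female 1 gave 8 (against 2.73%), WT male 2 gave 1 (against 1.68%), and scaling to repeat counts gave 1 (against 0.727% of the repeats tested). Of the cell type lists, the leukocyte and epithelial ones separated the same libraries. The leukocyte list summed to 9118 to 14378 CPM in KO males and 6149 to 8512 CPM in WT males. The epithelial list summed to 10.8 to 13.9 CPM in KO males and 22.9 to 57.3 CPM in WT males. The endothelial list overlapped, at 56.7 to 98.2 CPM in KO males and 41.2 to 92.2 CPM in WT males. So did the fibroblast list, at 37381 to 44790 CPM in KO males and 41664 to 50893 CPM in WT males. Adding the leukocyte score to the model gave a male median of −0.10. It called 0 subfamilies, as did the fit without it, and 0% of all entries. Entries of any kind at an unadjusted p under 0.05 fell from 5088 to 1461. Because the leukocyte list separated KO from WT males, this fit cannot tell genotype and leukocyte content apart. The part of the epithelial markers was not tested.

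Charlie30a had 1.16, 0.611 and 0.874 CPM in KO males and 2.54, 1.62 and 1.35 CPM in WT males. Tigger17 had 1.70, 1.55 and 2.10 CPM in KO males and 3.16, 2.66 and 3.10 CPM in WT males. In both, KO and WT males did not overlap. MER63B, in its hAT-Tip100 entry, had 2.11, 1.57 and 1.73 CPM in KO males and 2.49, 2.64 and 2.94 CPM in WT males, but 2.61, 2.82 and 2.75 CPM in KO females and 2.18 and 2.61 CPM in WT females, so the sexes went opposite ways (log2 fold change −0.54, SE 0.17, adjusted p = 0.0961 in males and 0.15, SE 0.19, adjusted p = 0.778 in females).

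Within females, the direction of the fold changes depended on which WT female served as comparison. Of 258 subfamilies, 0 passed the threshold (0.00436% of all entries did), and 9 were lower and 4 higher at an unadjusted p of 0.05 (5.04%, against 6.66% of all entries). The median log2 fold change was −0.20 with both WT females, 0.21 without WT female 2 and −0.48 without WT female 1. In 102 of 250 subfamilies (40.8%, against 9.92% of all entries) all 3 KO females lay above WT female 1 and below WT female 2. Without WT female 2, 209 of 261 fold changes were positive and 0 were called (0.00419% of all entries were). Without WT female 1, 27 were called lower and 1 higher (10.3% and 0.382% of 262, against 6.40% and 8.98% of all entries). A fit that leaves out 1 of the WT females keeps 1 WT female library, whose group is assumed to vary like the others.

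The 3 smallest p in females belonged to UCON7, UCON38 and hAT-N1_Mam. UCON7 had 0.221, 0.275 and 0.293 CPM in KO females and 0.0632 and 0.0724 CPM in WT females, where the floor is 0.0949 and 0.0724 CPM, so its fitted log2 fold change of 1.85 (SE 0.53, adjusted p = 0.692) compares levels with values at the floor. UCON38 had 1.15, 1.23 and 1.32 CPM in KO females and 1.58 and 2.27 CPM in WT females (log2 fold change −0.69, SE 0.24, adjusted p = 0.692). The hAT-N1_Mam value of −0.91 (SE 0.33, adjusted p = 0.692) rested on 1.54 CPM in WT female 2, against 0.727 CPM in WT female 1 and 0.552, 0.763 and 0.550 CPM in KO females.

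With all 11 libraries, no subfamily passed the test of a difference in the KO effect between males and females. In the interaction test, 0 of 258 passed the threshold (0% of all entries did), and 6 had an unadjusted p under 0.05, or 2.33%, against 13.1% of all entries. DESeq2 and limma-voom called 0 of the subfamilies, against 0.989% and 0% of all entries. Without WT female 1, edgeR called 2 of 262 (0.763%, against 10.1% of all entries), 1 in each direction. The median difference, male minus female, was −0.13 on the log2 scale, −0.56 without WT female 2 and 0.15 without WT female 1. The smallest p were those of UCON7 (−2.61, SE 0.70, adjusted p = 0.294), the hAT-Tip100 entry of MER63B (−0.69, SE 0.25, adjusted p = 0.313) and Eulor6B of the Crypton family (−1.70, SE 0.68, adjusted p = 0.338).

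The lean to negative values was found in each of the larger families. Among the 11 families with at least 3 subfamilies tested over both sexes, the median log2 fold change ran from −0.41 in the 5 hAT subfamilies tested to −0.16 in the 26 subfamilies of no family. In hAT-Charlie 75 of 78 were negative with a median of −0.29, in TcMar-Tigger 51 of 54 with −0.27, and in hAT-Tip100 39 of 46 with −0.26. All 7 hAT-Blackjack, 8 TcMar-Tc2, 4 hAT-Ac and 5 hAT subfamilies tested were negative. Summed by family, every KO male was below every WT male in the 10 families with the most counts, from hAT-Tip100 to hAT-Tag1, and in Crypton-A. Of all single entries tested, 15.3% had this order. Some margins were narrow, with 15.4 CPM in KO male 1 and 15.6 CPM in WT male 1 for hAT-Blackjack. For the unplaced subfamilies these libraries had 20.8 and 21.0 CPM. In all other families, among them PiggyBac, Kolobok, TcMar-Tc1, PIF-Harbinger, Crypton, Merlin and MULE-MuDR, which hold few counts, the ranges overlapped.

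The hAT-Charlie family summed to 774 to 1352 CPM in KO, with a mean of 1057 ± 228 (SD, n = 6), and to 1069.9 to 1707 CPM in WT, with a mean of 1223 ± 273 (SD, n = 5). TcMar-Tigger summed to 261 ± 57.4 CPM in KO and 305 ± 68.2 CPM in WT (SD, n = 6 and 5). Both differences were smaller than the SD of either group, and the highest WT library in each was WT female 2. These SDs span both sexes. In males, hAT-Charlie averaged 867 ± 113 CPM in KO and 1106 ± 51.4 CPM in WT (SD, n = 3 each). TcMar-Tigger averaged 212 ± 25.2 CPM in KO males and 275 ± 15.4 CPM in WT males (SD). In females, hAT-Charlie averaged 1247 ± 91.5 CPM in KO and 1400 ± 434 CPM in WT (SD, n = 3 and 2). The log2 ratio of mean shares, KO over WT, was −0.21 for hAT-Charlie and −0.22 for TcMar-Tigger with all libraries. Leaving out single libraries moved it between −0.29 and −0.061 for hAT-Charlie and between −0.31 and −0.072 for TcMar-Tigger. In females, the medians of hAT-Charlie, TcMar-Tigger and hAT-Tip100 were −0.21, −0.19 and −0.21 with both WT females, and 0.21, 0.20 and 0.21 without WT female 2.

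**Figure D4:**
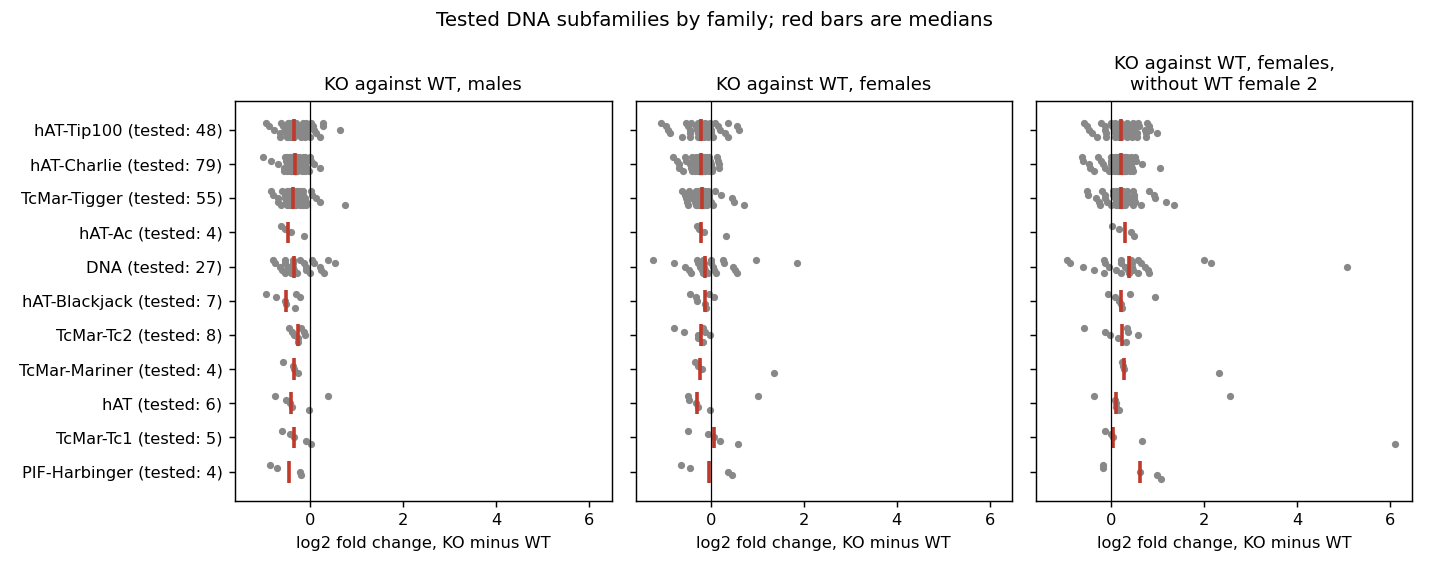
Log2 fold changes, KO minus WT, of the tested subfamilies of each family in males (left), in females (middle) and in females without WT female 2 (right), with red bars at family medians. The medians are negative in males in every family drawn, and in hAT-Charlie the median is −0.21 in females with both WT libraries and 0.21 without WT female 2.

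None of the most counted subfamilies of the smaller families passed the threshold. MER131, unplaced below the class and among the ancient conserved elements, had −0.12 (SE 0.16, adjusted p = 0.717), MER53 in its hAT-Blackjack entry −0.19 (SE 0.16, adjusted p = 0.558) and Kanga2_a of TcMar-Tc2 −0.29 (SE 0.16, adjusted p = 0.361). MMAR1, a mariner relative, had −0.27 (SE 0.15, adjusted p = 0.373) and MER121 of hAT −0.36 (SE 0.16, adjusted p = 0.284). EutTc1-N2 of TcMar-Tc1 (−0.019, SE 0.32) and UCON9 of PIF-Harbinger (0.093, SE 0.33) had SEs far larger than their fold changes, and EutTc1-N2 was lowest in WT female 2, at 0.217 CPM, against 0.848 to 0.971 CPM in the other WT libraries. The smallest p of these families were those of Eutr11 (−0.47, SE 0.17), Kanga1d (−0.48, SE 0.25), MADE2 (−0.48, SE 0.20), X32_DNA (−0.43, SE 0.28) and Chompy-6_Croc (−0.75, SE 0.36), with adjusted p between 0.213 and 0.450.

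A larger separation ran between the sexes. Male libraries had lower levels than female libraries in 35 of 250 subfamilies and higher levels in 0 (14%, against 2.46% of all entries lower and 1.83% higher, edgeR, model with genotype). At an unadjusted p of 0.05, 180 were lower and 0 higher (72%, against 14.4% of all entries lower and 12.7% higher), and the median log2 fold change, male minus female, was −0.52. LINE (19.9%) and LTR subfamilies (15.9%) were called at like rates, and SINE subfamilies at 2.94%. Of the 35, 13 were hAT-Charlie, 12 TcMar-Tigger and 6 hAT-Tip100. Female and male libraries carry differently styled names in the files, so sex and any difference in handling that went with those names cannot be told apart.

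Tigger9a had the smallest p. It had 2.07, 2.05 and 1.98 CPM in KO males and 2.19, 2.24 and 2.25 CPM in WT males. It had 3.58, 3.22 and 3.30 CPM in KO females and 3.10 and 4.32 CPM in WT females. Every male was below every female, every KO male was also below every WT male by a narrow margin, and the KO females lay between the WT females (log2 fold change, male minus female, −0.77, SE 0.11, adjusted p = 0.0105).

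X4a_DNA had 0.237, 0.327 and 0.208 CPM in KO males and 0.274, 0.288 and 0.318 CPM in WT males. It had 0.707, 0.784 and 0.330 CPM in KO females and 0.885 and 0.652 CPM in WT females. All males were below all females here too, though KO female 3 came close to the highest male (log2 fold change −1.35, SE 0.23, adjusted p = 0.0178). MER115 had −0.76 (SE 0.14, adjusted p = 0.0250), and its males (2.04 to 3.58 CPM) overlapped its females (3.42 to 5.5 CPM). Ranges did not overlap between the sexes in 7 of 250 subfamilies (2.80%, against 1.93% of all entries lower in males), which were MER58B, Tigger13a, Looper, Tigger9a, Arthur1A, X4a_DNA and the hAT-Tip100 entry of MER63A.

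The count of 35 was not stable. It ran from 1 to 140 when single libraries were left out, and the share of all entries called lower moved with it. The count was 1 without KO female 2 (against 0.391% of all entries), KO male 3 (0.403%) or WT male 2 (0.377%). It was 2 without KO female 3 (0.351%) or KO male 2 (0.231%), 3 without WT female 2 (0.893%), 4 without KO female 1 (0.608%), 7 without WT male 1 (1.05%) and 11 without KO male 1 (1.15%). It was 63 without WT male 3 (3.76%) and 140 without WT female 1 (8.02%). DESeq2 called 106 (against 6.63%) and limma-voom 164 (against 13.0%), in each case including all 35. Scaling to repeat counts left 1 (against 0.737% of the repeats tested), the share of other repeats as a covariate 1 (against 0.274% of all entries), and the leukocyte score as a covariate 12 (against 1.27%). The direction of the median was negative in all of these.

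Host genes derived from DNA transposases had fold changes of mixed sign. Of the 20 genes listed, 19 were matched and 16 passed the filter on low counts, and 0 of these passed the threshold in edgeR over both sexes, with 12 positive and 4 negative. Gtf2ird2, which carries a domain from a Charlie8 transposase, had 18.7, 19.9 and 20.2 CPM in KO females and 22.9, 23.7 and 17.9 CPM in KO males. It had 17.9 and 12.7 CPM in WT females and 16.7, 17.6 and 15.4 CPM in WT males. It was the only listed gene in which every KO library was above every WT library, by a narrow margin (KO mean 20.6 ± 2.31 CPM, n = 6, WT mean 16.1 ± 2.13 CPM, n = 5, both with SD; log2 fold change 0.38, SE 0.10, adjusted p = 0.179, edgeR; DESeq2 0.37, adjusted p = 0.0448). The Charlie8 subfamily itself had −0.30 (SE 0.14, adjusted p = 0.295).

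Cenpb, descended from a pogo transposase, had 213, 236 and 237 CPM in KO females and 269.7, 288 and 268 CPM in KO males. It had 225 and 138 CPM in WT females and 245, 244 and 208 CPM in WT males. KO males were above WT males, and the sexes together overlapped (log2 fold change 0.29, SE 0.10, adjusted p = 0.208). Tigd2, from Tigger, ran from 21.0 to 26.5 CPM in KO and from 17.0 to 21.8 CPM in WT (log2 fold change 0.25, SE 0.10, adjusted p = 0.248). limma-voom called Gtf2ird2, Tigd2 and Cenpb higher and Jrk lower, where 10.1% of all entries were called higher and 4.53% lower. DESeq2 called Gtf2ird2 alone, where 1.78% of all entries were called higher. Leaving out WT female 1 gave 2 higher calls in edgeR, Gtf2ird2 and Cenpb, where 4.60% of all entries were called higher.

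The piggyBac-derived genes Pgbd5 (0.72, SE 0.35, adjusted p = 0.314) and Pgbd1 (0.45, SE 0.26, adjusted p = 0.384) were read at under 2 CPM in every library. Pogz (0.052), a chromatin protein with a pogo domain, Pogk (0.051), Tigd5 (0.064), Harbi1 (0.059) and Zbed3 (−0.016) had SEs larger than their fold changes, and Naif1 (0.12), Jrkl (0.19), Zbed4 (0.29), Zbed5 (−0.27), Jrk (−0.19) and Tigd3 (−0.13) did not pass the threshold. Rag1 was at 0 in every library. Rag2 and Tigd4 did not exceed 0.0734 CPM in any library.

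**Figure D5:**
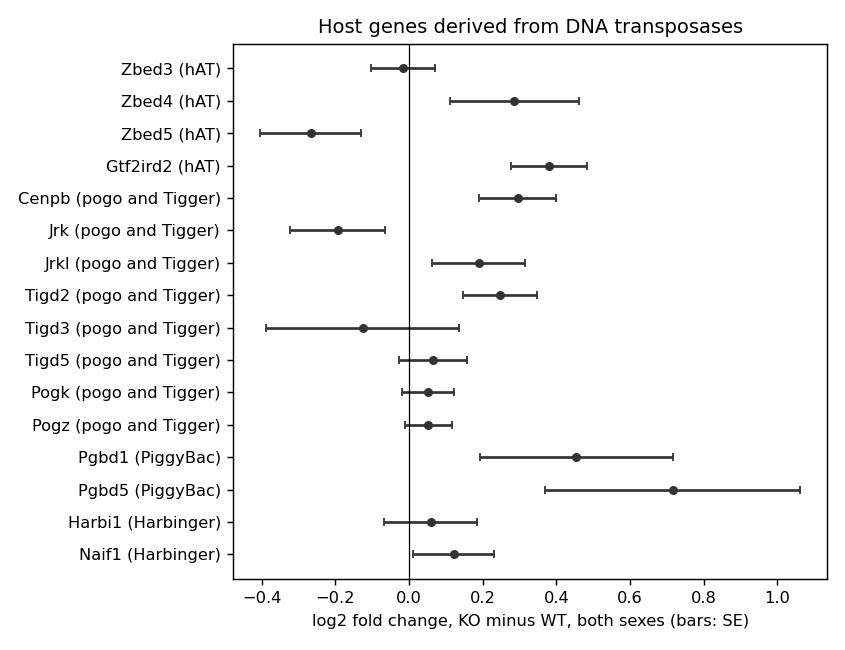
Log2 fold changes, KO minus WT over both sexes, of the 16 tested host genes derived from DNA transposases, with bars of 1 SE and the superfamily of origin in brackets. Gtf2ird2, Cenpb, Tigd2 and Pgbd5 lie right of 0 by more than 2 SE, none passed the adjusted threshold in edgeR, and Pgbd5 has the widest bar.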

How the data were processed

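The authors deposited raw whole-number counts per gene and repeat subfamily, 1 table per sample, without normalization. Per the submitters' processing notes, Trim Galore, STAR and the build GRCm39 were used, without stated versions. How reads were counted, by which program, on which strand, with which annotation and with what rule for multiple matches is not given in the sources used here, so related subfamilies may share reads. The extraction text in the labels speaks of tissue rather than cultured cells.

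CPM and shares were computed from the deposited counts and library totals. Genes and repeats were fitted together with edgeR 4.0.16 in R 4.3.3 (quasi-likelihood F-test, TMM scaling, filterByExpr with a minimum count of 10), with p-values adjusted by Benjamini-Hochberg over all entries tested and a threshold of 0.05. Contrasts over both sexes and between sexes used genotype and sex, and those within sex and their difference a mean per group. Alternatives used DESeq2 1.42.0 and limma 3.58.1. The procedure was tested on simulated data. SD is of CPM and SE of fitted log2 fold changes, and floors cover counting error only. No libraries were identical (chi-square per degree of freedom within groups 12.0 to 144).

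Members, lists and the rule for named entries were chosen with earlier results of these data known. The rule took Cgas, the 10 most counted subfamilies, 5 positive and 5 negative subfamilies with the smallest p and the same sign in each sex, the 3 smallest p of every other contrast, the most counted and the smallest p of each family with at least 3 tested, rodent-restricted subfamilies, all transposase-derived genes and entries past the threshold. The last part of the rule covered every contrast and alternative tool, and only some of the entries it took are described. Looper and MER63A were added by what they showed. Repeat consensus sequences and coordinates were not used here.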

Additional observations from a re-analysis of the deposited data

Results flagged for a closer look

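Of 78 groups of libraries examined (the 6 KO or the 5 WT libraries for 1 quantity each), 17 held a library whose gap to its nearest neighbour exceeded the Dixon 95% value, 0.625 for 6 libraries and 0.710 for 5. Chance flags about 1 in 20 groups, and the quantities are not independent, since family sums contain the subfamilies and all share the same libraries.

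WT female 2 was far above the other 4 WT libraries for most of these. It had 2463 CPM for the class without FordPrefect, 1707 CPM for hAT-Charlie, 425 CPM for TcMar-Tigger, 76.3 CPM for hAT-Ac, 24.1 CPM for TcMar-Tc2 and 18.3 CPM for TcMar-Mariner. Among subfamilies it had 312 CPM for URR1A, 264 CPM for URR1B, 156 CPM for MER2, 113 CPM for MER5A, 111 CPM for RCHARR1, 109.9 CPM for MER20, 71.4 CPM for OldhAT1, 73.0 CPM for Charlie1a and 67.5 CPM for MER5B. The same library was far below the other WT libraries for Jrkl, a host gene related to jerky, with 5.86 CPM. KO male 3 was the highest KO library for Zbed3, with 22.4 CPM, against 20.7 to 21.1 CPM in the other KO libraries.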

How the results depend on the processing

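No subfamily was called lower in KO over both sexes with RLE scaling, scaling over genes alone, no filter on low counts, a filter of 50 counts on average or either covariate. DESeq2 called 1, limma-voom with quality weights 22, and leaving out single libraries gave 0 to 40 lower and 0 to 0 higher. In males DESeq2 called 4 lower, limma-voom 57, scaling to repeat counts 1, and single omissions 0 to 10. In females single omissions gave 0 to 27 lower and 0 to 1 higher, and for the difference between the sexes 0 to 1 in each direction. Between the sexes the 35 lower calls became 106 with DESeq2, 164 with limma-voom, 12 with the leukocyte score, 1 with the share of other repeats, 1 with scaling to repeat counts, and 1 to 140 with single omissions. Without WT female 2 and KO male 1 together, an alternative chosen after seeing the data, 1 remained. Among host genes, DESeq2 called 1 higher, limma-voom 3 higher and 1 lower, and single omissions 0 to 2 higher.

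The median log2 fold change over both sexes was −0.030 with scaling to repeat counts, and −0.38 to −0.18 with single omissions. In males it was −0.10 with the leukocyte score and −0.50 to −0.25 with single omissions. In females it was 0.085 with scaling to repeat counts, 0.0038 with the share of other repeats, 0.21 without WT female 2 and KO male 1, and −0.48 to 0.21 with single omissions. For male minus female effects it was −0.71 without WT female 2 and KO male 1, and −0.56 to 0.15 with single omissions. Between the sexes scaling to repeat counts gave −0.23.

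For class sums, also without FordPrefect (an alternative chosen after seeing the data), the log2 ratio of the share of repeat counts in KO over WT was 0.0090 for the class over both sexes and 0.086 in females. It was 0.079 in females and −0.12 in males for the class without FordPrefect, and 0.012 over both sexes and 0.088 in females for FordPrefect. By family this share gave 0.11 for the unplaced subfamilies, 0.13 for PIF-Harbinger, 0.086 for TcMar-Tc1, 0.030 for hAT-Ac, 0.012 for hAT-Blackjack and 0.012 for hAT-Tip100. Single omissions moved the log2 ratio of the share of all counts in females between −0.53 and 0.30 for the class, −0.44 and 0.19 without FordPrefect, and −0.55 and 0.33 for FordPrefect. They moved it between −0.18 and 0.040 for the unplaced subfamilies and between −0.25 and 0.042 for PIF-Harbinger over both sexes.

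Some named entries changed sign over both sexes. With the leukocyte score, values were 0.036 for EutTc1-N2, 0.061 for Kanga2_a, −0.017 for MER124, 0.22 for MER131, 0.049 for MER53 (hAT-Blackjack), −0.033 for MER58C, 0.015 for MER5B, 0.076 for MMAR1, 0.029 for MamTip2b, −0.0093 for Pogk, −0.016 for Pogz and −0.046 for Zbed4. With scaling to repeat counts they were 0.17 for EutTc1-N2, 0.00094 for FordPrefect, 0.12 for MER131, 0.053 for MER53, 0.013 for MER5B and 0.033 for OldhAT1, and with the share of other repeats 0.064 for MER131 and 0.0047 for MER53. With limma-voom they were −0.030 for Naif1 and −0.31 for UCON9. Without WT female 2 and KO male 1 they were −0.0054 for Jrkl, −0.032 for MER124 and −0.042 for Pogz. Single omissions spanned −0.37 to 0.13 for EutTc1-N2, −0.030 to 0.18 for Harbi1, −0.011 to 0.16 for Naif1, −0.0095 to 0.081 for Pogz, −0.090 to 0.24 for UCON9 and −0.11 to 0.026 for Zbed3. The causes were not tested.

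For samples with the same replicate number in KO and WT, deviations from the group means correlated at −0.15 to 0.073. Pairs with different numbers spanned −0.24 to 0.19. With groups of 2 or 3 libraries, this cannot tell whether equal numbers mark a shared batch. A fit with the number within sex as a replicate block called 0 subfamilies over both sexes, with a median of −0.26, and gave −0.030 for UCON9. Depth limits what can be said of the 149 subfamilies at or under 1 CPM.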
